A study of Mus musculus with 6 samples.

Results

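The endocannabinoid receptors and enzymes are 8 genes, taken by name from a table of 36727 genes, and all 8 were found. They are the receptors Cnr1, Cnr2 and Trpv1, the synthesis enzymes Napepld, Dagla and Daglb, and the breakdown enzymes Faah and Mgll. The set was chosen because Cnr1 was higher in all 3 libraries of the high litter size group, so the Cnr1 values are given as a description, with no test. The other 7 genes belong to the set by function, and their differences were read from a fit across all genes.

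RNA was sequenced from 6 samples, labelled as ovarian tissue, of adult female F4 inbred Swiss albino mice, aged 135 to 140 days, with the tissue labelled as estrous-phased. The high litter size group held replicates 1, 3 and 4, while replicates 1, 2 and 5 made up the low litter size group. The labels set the groups apart by litter size alone and name no treatment or engineered allele. Separate animals are not stated as the source of the samples, so p-values reflect only how far these samples vary, and that variation may be technical.

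Endocannabinoids are lipid messengers that cells make on demand from membrane phospholipids and that act on G protein-coupled receptors. Anandamide is released by NAPE-PLD, the product of Napepld, and degraded by FAAH, whereas 2-arachidonoylglycerol is made by the diacylglycerol lipases and degraded mainly by monoacylglycerol lipase, the product of Mgll. In the female reproductive tract the balance of anandamide synthesis and breakdown is known for its part in oviductal transport of embryos and in implantation, and receptors and enzymes have been described in the ovary. Fat cells also use monoacylglycerol lipase in the last step of triglyceride breakdown.

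The 6 libraries held 17620903 to 24758222 estimated counts, and levels were expressed in CPM, the usual scaling of counts by depth, here with TMM-adjusted library totals. Libraries differed in tissue content, both between and within the groups, and 3 of the 6 had little RNA of the cell types that mark an ovary. Summed granulosa cell markers were 476, 452 and 366 CPM in high replicate 4 and low replicates 1 and 5, against 36.8, 27.1 and 51.7 CPM in high replicates 1 and 3 and low replicate 2. In the same order, markers of steroid-producing theca and luteal cells summed to 9950, 771 and 3204 CPM against 204, 257 and 99.6 CPM. Oocyte markers summed to 71.8, 15.2 and 50.8 CPM against 1.74, 3.86 and 3.19 CPM. Of the 9 oocyte markers, 3 had no count in high replicate 1, 1 in high replicate 3 and 3 in low replicate 2. The 12 adipocyte markers summed to 35800 CPM in high replicate 3 and to between 609 and 4930 CPM in the other libraries. Values of the 8 genes are therefore also given without high replicate 3 and within each set of 3 libraries of like granulosa marker level. The granulosa-rich libraries are high replicate 4 and low replicates 1 and 5. The granulosa-poor libraries are high replicates 1 and 3 and low replicate 2. These sets were formed after the data were seen, and in each set 1 group has a single library. They are not matched in other cell types. Steroidogenic markers ran from 771 to 9950 CPM in the granulosa-rich set. Adipocyte markers ran from 4752 to 35800 CPM in the granulosa-poor set. In bulk tissue, fewer cells of a type and less RNA per cell cannot be told apart.

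Cnr1 and Faah were the members whose high and low libraries did not overlap, Cnr1 higher and Faah lower in the high group. The sequences before their start sites are shown because these 2 genes carry the opposite patterns. Each is the 250 bases before a RefSeq start site on GRCm38, printed 5′ to 3′ on the gene's own strand, with motif matches in capitals. The Cnr1 window is chr4:33924014-33924263 on the plus strand, upstream of the first of 3 RefSeq starts, and the Faah window is chr4:116017925-116018174 on the minus strand.
Cnr1: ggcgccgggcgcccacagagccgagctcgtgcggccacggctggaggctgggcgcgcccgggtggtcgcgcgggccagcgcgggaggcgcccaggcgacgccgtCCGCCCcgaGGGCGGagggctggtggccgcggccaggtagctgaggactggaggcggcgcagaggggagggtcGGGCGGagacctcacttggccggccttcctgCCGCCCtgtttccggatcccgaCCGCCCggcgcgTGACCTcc
Faah: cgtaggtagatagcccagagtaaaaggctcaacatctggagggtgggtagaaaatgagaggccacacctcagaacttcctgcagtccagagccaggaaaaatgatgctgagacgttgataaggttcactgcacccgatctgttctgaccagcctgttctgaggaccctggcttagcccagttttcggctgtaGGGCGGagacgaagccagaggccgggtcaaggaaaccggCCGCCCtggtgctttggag
Capitals in the Cnr1 window mark 5 GC boxes (GGGCGG on either strand) and 1 nuclear receptor core motif (AGGTCA on either strand). In the Faah window they mark 2 GC boxes. Of 32851 such windows over all genes, 32.7% held a GC box and 14.0% held AGGTCA. The Cnr1 window had 36 CG pairs and a GC content of 79.2%, and the Faah window had 9 CG pairs and 55.6%. The medians over all windows were 6 CG pairs and 52.4%. The full palindromic oestrogen response element matched in neither window and in 0.0639% of all windows. The direct repeat bound by peroxisome proliferator-activated receptors, which contains the core motif, matched in neither window and in 0.0335% of all. Also searched on both strands, without a match in either window, were the TATA box (TATAAA, in 12.4% of all windows), the CCAAT box (CCAAT, in 33.8%) and the E-box (CACGTG, in 6.02%). The windows before the later Cnr1 starts differed from the one shown. The window chr4:33924394-33924643 held 1 E-box and no other match, with 28 CG pairs and a GC content of 68.8%. The gene start given for Cnr1 below, 33924593, lies inside this window and downstream of the window shown. Which start these samples used was not tested. The window chr4:33926130-33926379 held no match, with 5 CG pairs and 49.2%.

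Cnr1 encodes the type 1 cannabinoid receptor, a G protein-coupled receptor best known from neurons and also present in fat and reproductive tissues (ENSMUSG00000044288, GRCm38 chromosome 4, 33924593 to 33948831, protein-coding). Its counts were 51, 180 and 104 in high replicates 1, 3 and 4, compared with 3, 7 and 8 in low replicates 1, 2 and 5. In CPM the levels were 2.6, 11.2 and 5.22 in the high group against 0.173, 0.373 and 0.311 in the low group. The lowest high library, replicate 1, lay above the highest low library, replicate 2. These are the values by which the gene was chosen, and 8.75% of the 16455 genes tested also had all high libraries above all low ones.

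The ratio of summed Cnr1 counts, high over low and scaled by library size, was 20.7. As a fitted log2 fold change this was 4.43 (SE 0.71), and it was 3.74 without high replicate 3. Leaving out each library in turn gave 3.74 to 4.78. The value was 4.34 between the granulosa-rich libraries and 4.15 between the granulosa-poor ones. The direction of all these values is fixed by the choice of the gene.

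**Figure D1:**
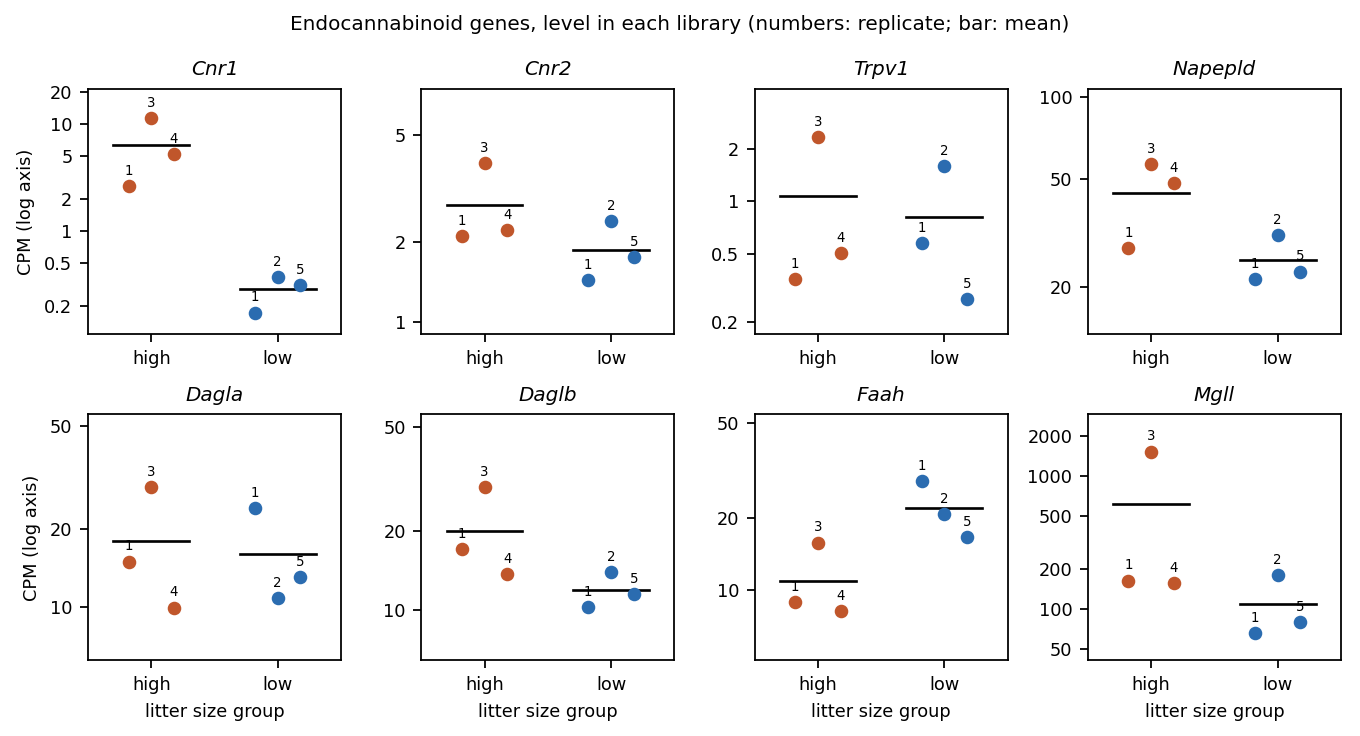
Level of each of the 8 genes in CPM (vertical log axis, with its own range in each panel) in the high and low litter size groups. Points are libraries with their replicate numbers and bars are group means over 3 libraries. For Cnr1 the high libraries, 2.6 to 11.2 CPM, lie above the low ones, 0.173 to 0.373 CPM, and for Faah they lie below.

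Cnr1 was compared with the markers of cells in which it could be expressed. Low replicate 2 had more adipocyte marker RNA than high replicates 1 and 4 (4930 against 4752 and 3723 CPM) and less Cnr1 (0.373 against 2.6 and 5.22 CPM). Per 1000 CPM of adipocyte markers, Cnr1 was 0.548, 0.313 and 1.40 CPM in the high group against 0.284, 0.0756 and 0.171 CPM in the low group. The groups did not overlap on that scale, with the smallest gap between high replicate 3 and low replicate 1. Scaled in this way to each of the 14 marker lists, Cnr1 was higher in all high libraries for 11 lists, and the groups overlapped for steroidogenic, oocyte and ciliated oviduct markers. Per 1000 CPM of steroidogenic markers it was 12.7, 43.7 and 0.525 CPM in the high group against 0.224, 3.74 and 0.0972 CPM in the low group, so low replicate 2 lay above high replicate 4. Cnr1 was chosen for being higher in all high libraries, which favours separate groups on these scales as well, so the scaled values are only a description. The part of fat cells and of the other cell types in the Cnr1 difference was not tested. Peripheral neuron markers summed to 11.3 to 37.2 CPM in the high group and 10.7 to 15.9 CPM in the low group, and 5 of 12 had no count in at least 1 library, among them the noradrenaline synthesis enzyme Th. Schwann cell markers summed to 173 to 324 CPM in the high and 150 to 192 CPM in the low group.

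Markers of stratified epithelium, a lining tissue with basal keratinocytes, moved with Cnr1 in part. Of 11 such genes, 5 were higher in all high libraries (Trp63, Krt5, Krt15, Fat2 and Col17a1) and 2 were lower in all of them (Krt17 and Sfn). The basal keratin Krt5 had 81.3, 68.1 and 206 CPM in the high group against 2.88, 12.9 and 0.428 CPM in the low group. The sum of the list overlapped between the groups, at 139 to 642 CPM in the high and 140 to 345 CPM in the low libraries. Most of the sum in each low library was Perp, with 214, 151 and 97.2 CPM in low replicates 1, 2 and 5. In high replicates 1, 3 and 4 Perp had 28.6, 23.9 and 107 CPM. The keratin Krt14 overlapped, at 30.5, 1.62 and 193 CPM in the high group against 6.055, 0.532 and 0.428 CPM in the low group. So did Dsg3, at 4.64, 0.873 and 30.5 CPM against 6.34, 1.065 and 0.350 CPM. Krt17 had 1.84, 1.18 and 4.37 CPM in the high group against 9.98, 14.3 and 9.3 CPM in the low group. Sfn had 7.60, 10.2 and 22.2 CPM against 101, 45.5 and 29.4 CPM. The desmosomal Dsc3 had no count in high replicate 3, the library with most Cnr1. The part of these epithelial cells was not tested either.

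Likeness to Cnr1 was measured as the root mean square difference of centred log2 CPM over the 6 libraries, among 14550 genes. This is a description, since Cnr1 was chosen for its pattern. The nearest gene was Trp63, the transcription factor of basal epithelial cells, at 0.568, with 9.39, 14.7 and 11.3 CPM in the high group against 0.750, 0.586 and 1.25 CPM in the low group. Serpina3n, a serine protease inhibitor, followed at 0.570, with 48.4, 246 and 125 CPM against 5.48, 26.4 and 15.2 CPM. Like Cnr1, Serpina3n was highest in high replicate 3 and lowest in low replicate 1. The next were Golga7b (0.691), Mrap, an accessory protein of melanocortin receptors (0.740), the membrane protein Prom2 (0.744) and the aldehyde dehydrogenase Aldh3a1 (0.802). Of these 6 genes, 5 were also the nearest with a prior count of 0.5 in place of 2, and Aldh3a1 went to rank 173. Among the other members Mgll was nearest, at 1.24, and Faah farthest, at 2.51, while the median gene stood at 2.05.

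Cnr2 encodes the type 2 cannabinoid receptor, found mainly on immune cells (ENSMUSG00000062585, chromosome 4, 135895394 to 135920207). It had 2.09, 3.93 and 2.21 CPM in high replicates 1, 3 and 4, compared with 1.44, 2.40 and 1.75 CPM for low replicates 1, 2 and 5. Low replicate 2 lay above high replicates 1 and 4, so the groups overlapped. The log2 fold change was 0.55 (SE 0.45, edgeR quasi-likelihood adjusted p = 0.617), and 0.21 without high replicate 3. It was 0.43 between the granulosa-rich and 0.30 between the granulosa-poor libraries. B and plasma cell markers summed to 105 to 363 CPM in the high and 304 to 525 CPM in the low libraries, and most of that sum was Jchain, a plasma cell gene (94.7 to 346 and 291 to 508 CPM). Of the 8 markers, 1 was higher and 1 lower in all high libraries. The higher was the B cell gene Cd22, at 5.26, 9.35 and 2.41 CPM against 2.08, 1.65 and 2.30 CPM. The lower was the B cell gene Cd79b, at 1.63, 2.81 and 2.16 CPM against 3.69, 4.05 and 3.15 CPM. The B cell antigen Ms4a1 was among those that overlapped. Macrophage markers summed to 701 to 1200 CPM in the high and 685 to 822 CPM in the low libraries. The part of these immune cells in the Cnr2 levels was not tested.

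The 2 cannabinoid receptors were also set against each other within each library. The count of Cnr1 over that of Cnr2 was 1.24, 2.86 and 2.36 in the high group against 0.120, 0.156 and 0.178 in the low group. Every high library had more Cnr1 than Cnr2 counts, and every low library had fewer. This ratio does not depend on library scaling, and it rests on the Cnr1 values used for the choice. It takes no account of gene length. Per kilobase of merged exons, high replicate 1 had less Cnr1 than Cnr2 (0.404 against 0.525 CPM per kilobase).

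Trpv1 encodes a cation channel of sensory neurons that anandamide can open (ENSMUSG00000005952, chromosome 11, 73234292 to 73261242). Its counts were low, at 7, 38 and 10 in the high and 10, 30 and 7 in the low libraries. In CPM these were 0.357, 2.37 and 0.502 against 0.577, 1.6 and 0.272. High replicate 3 and low replicate 2 were the highest libraries, 1 in each group. The log2 fold change was 0.39 (SE 0.95, edgeR adjusted p = 0.88), and it turned to -0.90 without high replicate 3 and to -0.026 without low replicate 5. It was 0.23 between the granulosa-rich and -0.27 between the granulosa-poor libraries.

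Faah encodes fatty acid amide hydrolase, the main enzyme that degrades anandamide (ENSMUSG00000034171, chromosome 4, 115967145 to 116017926). It had 8.98, 15.8 and 8.18 CPM in high replicates 1, 3 and 4, compared with 28.5, 20.8 and 16.7 CPM for low replicates 1, 2 and 5. All high libraries lay below all low ones, with a narrow gap between high replicate 3 and low replicate 5. Among all genes tested, 10.8% had the same arrangement. The group means were 11.0 ± 4.20 CPM against 22.0 ± 6.0 CPM (SD, n = 3), a log2 fold change of -1.0 (SE 0.35), which did not pass (edgeR quasi-likelihood adjusted p = 0.304). Without 1 library the log2 fold change ran from -1.36, without high replicate 3, to -0.77, without low replicate 1. It was -1.49 between the granulosa-rich libraries and -0.78 between the granulosa-poor ones.

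Simple epithelium markers followed the same order of groups as Faah. Their sum was 488, 456 and 811 CPM in the high group against 3834, 2227 and 1584 CPM in the low group, and 6 of the 8 markers were lower in all high libraries. Per 1000 CPM of these markers, Faah was 18.4, 34.8 and 10.1 CPM in the high group against 7.43, 9.35 and 10.5 CPM in the low group. On that scale the groups overlapped, and high replicates 1 and 3 lay above all low libraries. The groups also overlapped when Faah was scaled to stratified epithelium, B and plasma cell, smooth muscle, stroma, granulosa, steroidogenic, oocyte and ciliated oviduct markers. Scaled to adipocyte, peripheral neuron, Schwann cell, macrophage or endothelium markers, Faah was lower in all high libraries. The part of epithelial cells in the Faah difference was not tested.

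Napepld encodes the phospholipase D that releases anandamide and related amides (ENSMUSG00000044968, chromosome 5, 21662901 to 21701396). Its levels were 27.8, 56.8 and 48.1 CPM in the high and 21.3, 31.1 and 22.8 CPM in the low libraries. High replicates 3 and 4 were above every low library, while high replicate 1 lay below low replicate 2. The log2 fold change was 0.82 (SE 0.31, edgeR adjusted p = 0.324), with 0.60 to 1.05 when 1 library was left out, the lowest without high replicate 3. The granulosa-rich libraries gave 1.09 and the granulosa-poor ones 0.415.

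Within each library, the count of Faah over that of Napepld sets anandamide breakdown against synthesis at the level of mRNA. It was 0.323, 0.279 and 0.170 in the high group against 1.33, 0.669 and 0.732 in the low group. The means were 0.257 ± 0.0787 and 0.912 ± 0.368 (SD, n = 3), and the groups did not overlap, as for Faah alone. High replicate 4, which is rich in granulosa markers, had the lowest ratio, and low replicate 1, also rich in them, the highest. No test was made of this ratio, because it joins 2 genes of a set chosen with the results known.

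**Figure D2:**
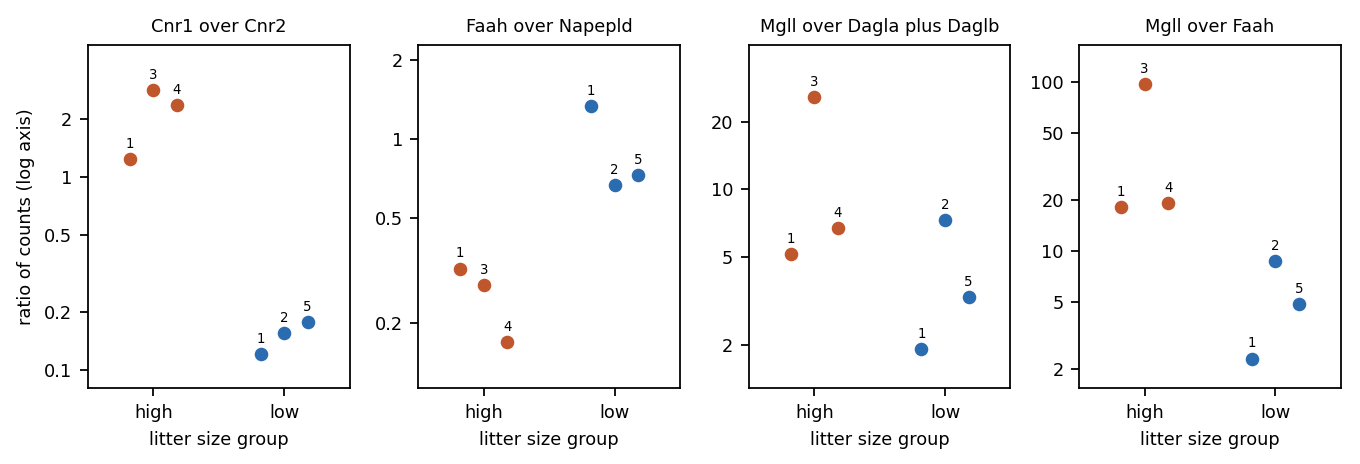
Ratios of estimated counts within each library (vertical log axes, own range in each panel) for the high and low litter size groups, with points labelled by replicate number. The groups are apart for Cnr1 over Cnr2, Faah over Napepld and Mgll over Faah. Each of these ratios holds Cnr1 or Faah, the members whose own groups did not overlap. How often ratios of other gene pairs separate the groups is not given here. For Mgll over the sum of Dagla and Daglb the groups overlap. There low replicate 2 (7.31) lies above high replicates 1 and 4 (5.12 and 6.69). Dagla over Daglb, which is not drawn, also overlaps.

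Dagla and Daglb encode the diacylglycerol lipases alpha and beta, which make 2-arachidonoylglycerol. Dagla (ENSMUSG00000035735, chromosome 19, 10245265 to 10304877) had 15, 29.1 and 9.94 CPM in the high and 24.0, 10.8 and 13.0 CPM in the low libraries. High replicate 3 was highest and high replicate 4 lowest, so both ends of the range fell in the same group. The log2 fold change was 0.17 (SE 0.49, edgeR adjusted p = 0.897), and it turned to -0.36 without high replicate 3 and to -0.039 without low replicate 2. The granulosa-rich libraries gave -0.93 and the granulosa-poor ones 0.998, in opposite directions.

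Daglb (ENSMUSG00000039206, chromosome 5, 143464584 to 143505942) had 17.0, 29.5 and 13.7 CPM in the high and 10.2, 13.9 and 11.4 CPM in the low libraries. Only low replicate 2 overlapped the high range, just above high replicate 4. The log2 fold change was 0.76 (SE 0.34, edgeR adjusted p = 0.376), and 0.37 without high replicate 3. The granulosa-rich libraries gave 0.30 and the granulosa-poor ones 0.715. Its annotated exons share 2309 bases with those of Rac1 on the opposite strand, so reads of the 2 genes may not have been fully separated.

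Mgll encodes monoacylglycerol lipase, which degrades 2-arachidonoylglycerol and completes the breakdown of triglycerides in fat cells (ENSMUSG00000033174, chromosome 6, 88724412 to 88828360). It had 164, 1529 and 158 CPM in high replicates 1, 3 and 4, compared with 65.7, 181 and 80.4 CPM for low replicates 1, 2 and 5. High replicate 3 stood far above the rest, and low replicate 2 lay above the other high libraries. The log2 fold change was 2.5 (SE 1.01, edgeR adjusted p = 0.336), and it was 0.57 without high replicate 3. The granulosa-rich libraries gave 1.08 and the granulosa-poor ones 2.19.

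The level of Mgll ran alongside adipocyte markers in most libraries. Per 1000 CPM of those markers, Mgll was 34.5, 42.7 and 42.4 CPM in the high group against 108, 36.6 and 44.1 CPM in the low group. The 5 libraries other than low replicate 1, which had the least adipocyte marker RNA, fell within 34.5 to 44.1 CPM. In high replicate 3, all 12 adipocyte markers were at their highest, and adiponectin (Adipoq) had 2747 CPM against 38.4 to 485 CPM in the other libraries. The part of fat cells in the Mgll difference was not tested.

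**Figure D3:**
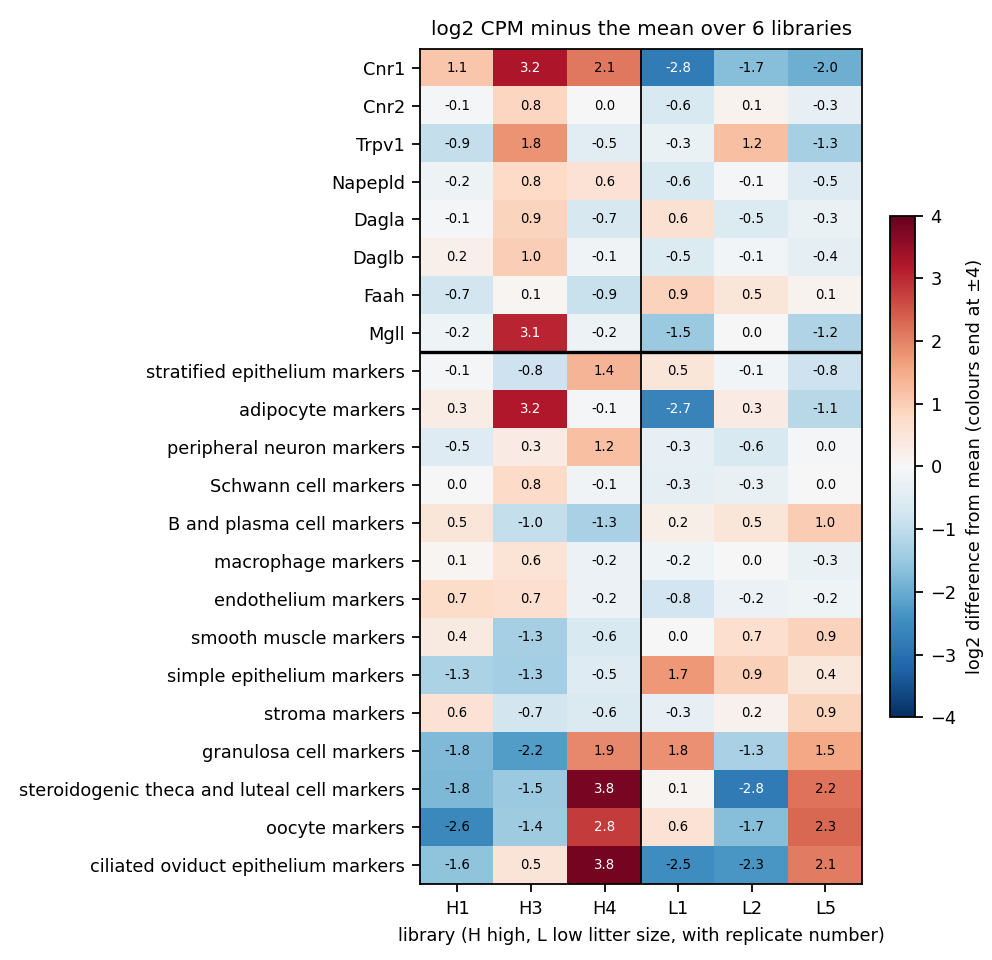
Each of the 8 genes (upper block, CPM) and each cell type marker list (lower block, summed CPM) as log2 difference from its own mean over the 6 libraries, with the value printed in each cell. Mgll and the adipocyte markers share their highest library, H3 (3.1 and 3.2), whereas Cnr1 is above its mean in all of H1, H3 and H4 and below it in all of L1, L2 and L5.

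High replicate 3 was the highest library for 6 of the 7 members other than Cnr1, all except Faah, against 27.7% of all genes tested. Cnr1 was also highest there, but its choice placed its highest value in the high group. Faah was highest in low replicate 1, as were 17.2% of all genes. Spread within groups differed between members. In the high group the coefficient of variation ran from 33.6% for Napepld to 128% for Mgll, and in the low group from 15.8% for Daglb to 85.1% for Trpv1.

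Levels of different genes were compared per kilobase of merged exons. The median over the 6 libraries was 31.7 CPM per kilobase for Mgll, 7.44 for Napepld, 2.44 for Dagla, 2.07 for Faah, 1.44 for Daglb, 0.540 for Cnr2, 0.231 for Cnr1 and 0.1465 for Trpv1. Mgll lay above Napepld, Napepld above Dagla, and Daglb above Cnr2 in 6 of 6 libraries each. Dagla lay above Faah in 5 of 6. Faah lay above Daglb in 3 of 6 libraries, which were the 3 low ones. Cnr2 lay above Cnr1 in 4 of 6, and Cnr1 above Trpv1 in the 3 high libraries. Neighbours from Dagla to Daglb and from Cnr2 to Trpv1 were therefore not separated over all libraries. With the longest annotated transcript as length, the order within the middle group was Faah (2.93), Daglb (2.82) and Dagla (2.48).

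By edgeR's quasi-likelihood test, 0 of the 7 members other than Cnr1 passed at an adjusted p of 0.05, and 0.00608% of all genes tested passed (1 of 16455). At an unadjusted p under 0.05 these were 3 of the 7 (Faah, Napepld and Mgll) and 14.4% of all genes. The edgeR likelihood ratio test and limma voom also called 0 of the 7, with 3.83% and 0.0182% of all genes called. DESeq2 called 0 of the 6 to which it gave an adjusted p, and left that of Mgll undefined. It called 6.24% of all 16455 genes tested, a total that includes genes left without an adjusted p. Of the 7, 6 had positive and 1 negative log2 fold changes, with a median of 0.55, beside 55.3% positive and a median of 0.068 over all genes. Groups that did not overlap were found for 1 of the 7 (Faah) and for 19.5% of all genes.

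**Figure D4:**
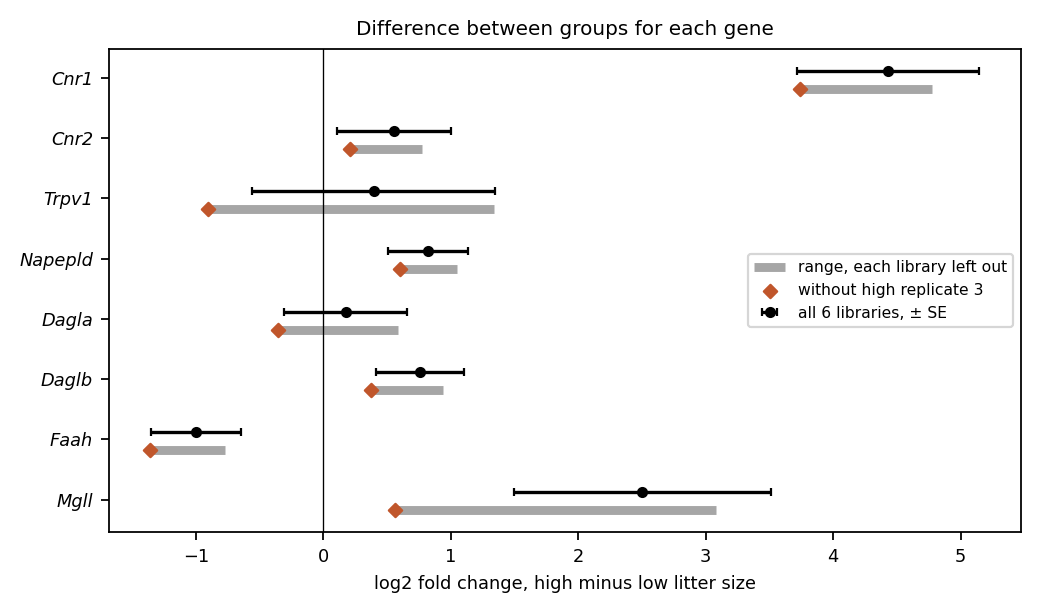
Log2 fold change of each gene, high minus low litter size (horizontal axis). Black points with bars are the fit on all 6 libraries ± SE, grey bands the range when each library is left out in turn, and diamonds the fit without high replicate 3. Cnr1 stays between 3.74 and 4.78, Mgll drops to 0.57 at the diamond, and the bands of Trpv1 and Dagla cross 0.

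The remaining genes of the endocannabinoid system were taken from a list of 42, of which 37 had enough counts to be tested. By edgeR 0 of the 37 passed in either direction, beside 0.00608% of all genes tested, and 7 had an unadjusted p under 0.05, beside 14.4%. Positive log2 fold changes were found for 21 (56.8%) and negative ones for 16, beside 55.3% positive over all genes. The median was 0.18, beside 0.068. All high libraries lay above all low ones for 4 of the 37 and below them for 2, beside 8.75% and 10.8% of all genes. The anandamide-sensitive channels Trpa1 and Trpm8 had at most 2 counts in any library. The lipid receptor Gpr119 had none in 6 libraries, Plaat5, an N-acyltransferase, at most 7, and the brain fatty acid binding protein Fabp7 at most 9.

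Among alternative receptors, the fat cell regulator Pparg had 39.3, 146 and 47.3 CPM in the high and 9.11, 27.9 and 11.1 CPM in the low libraries, with no overlap. Its log2 fold change was 2.27 (SE 0.67, edgeR adjusted p = 0.245), and 1.44 without high replicate 3. It passed with DESeq2 (adjusted p = 0.0137) and the edgeR likelihood ratio test (0.0297), and Pparg is itself 1 of the 12 adipocyte markers. Ppara, a regulator of fatty acid oxidation, had 4.59, 58.0 and 3.21 CPM against 1.56, 1.86 and 3.85 CPM, where high replicate 3 alone stood apart. Its log2 fold change was 3.17 with all libraries (SE 1.19, edgeR adjusted p = 0.321) and 0.68 without high replicate 3. Trpv4, an osmotically gated channel, was lower in all high libraries, at 14.7, 21.4 and 16.1 CPM against 26.6, 29.7 and 45.1 CPM (log2 fold change -0.96, SE 0.28, edgeR adjusted p = 0.245). Its value was -1.14 without high replicate 3.

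Among signalling partners, Gnai1, a G protein alpha subunit of the inhibitory class through which cannabinoid receptors act, had 117, 408 and 75.0 CPM in the high and 15.4, 53.4 and 30.9 CPM in the low group. The groups did not overlap, and the log2 fold change was 2.59 (SE 0.76, edgeR adjusted p = 0.245), or 1.53 without high replicate 3. Gnai1 passed with DESeq2 (adjusted p = 0.00845) and the edgeR likelihood ratio test (0.0252). The other inhibitory subunits Gnai2, Gnai3 and Gnao1 had log2 fold changes of -0.14, -0.19 and 0.36. All 9 tested genes of the binding and receptor partner group had positive values, beside 55.3% of all genes. They ran from 0.10 for Gprasp1 to 2.87 for Fabp4, the fat cell lipid carrier. Of the 9, 0 had an unadjusted edgeR p under 0.05, beside 14.4% of all genes. High replicate 3 was the highest library for 5 of the 9, beside 27.7% of all genes. Without high replicate 3, Fabp4 was at 0.91 and the heart fatty acid binding protein Fabp3 turned from 0.36 to -0.46. Gprasp1 turned to -0.029 without high replicate 1 and to -0.027 without low replicate 2. Between the granulosa-rich libraries, Fabp3, Gprasp1 and the arrestins Arrb1 and Arrb2 were negative, at -0.205, -0.047, -0.093 and -0.092. Between the granulosa-poor libraries, the receptor-interacting genes Cnrip1 and Sgip1 were negative, at -0.052 and -0.218. Fabp5, a related carrier of anandamide, had 2.18 (SE 0.98, edgeR adjusted p = 0.377), or 0.79 without high replicate 3.

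Among further enzymes, Abhd12, a second hydrolase of 2-arachidonoylglycerol, had 56.7, 153 and 59.6 CPM in the high and 39.9, 45.0 and 40.7 CPM in the low libraries. All high libraries lay above all low ones (log2 fold change 1.10, SE 0.41, edgeR adjusted p = 0.318), with 0.47 once high replicate 3 was left out. Gdpd1, a lysophospholipase D of an alternative route to N-acylethanolamines, had 9.13, 8.79 and 20.0 CPM against 42.2, 41.2 and 13.9 CPM. High replicate 4 and low replicate 5 crossed, and the log2 fold change was -1.35 (SE 0.53, edgeR adjusted p = 0.328), or -1.15 without high replicate 3. It was -0.51 between the granulosa-rich and -2.22 between the granulosa-poor libraries. Plcb3, a phospholipase C that yields diacylglycerol, was lower in all high libraries, at 91.8, 98.1 and 68.6 CPM against 137, 114 and 122 CPM (log2 fold change -0.53, SE 0.21, edgeR adjusted p = 0.331), with -0.63 when high replicate 3 was left out. The related Plcb1 went the other way, at 18.9, 84.2 and 19.6 CPM against 9.29, 18.6 and 18.2 CPM, with no overlap. Its log2 fold change was 1.41 (SE 0.66, edgeR adjusted p = 0.387), or 0.325 without high replicate 3. Outside the 8 genes of smallest p, the log2 fold changes of the other 29 ran from -0.76 for Naaa to 2.87 for Fabp4, with a median of 0.10.

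**Figure D5:**
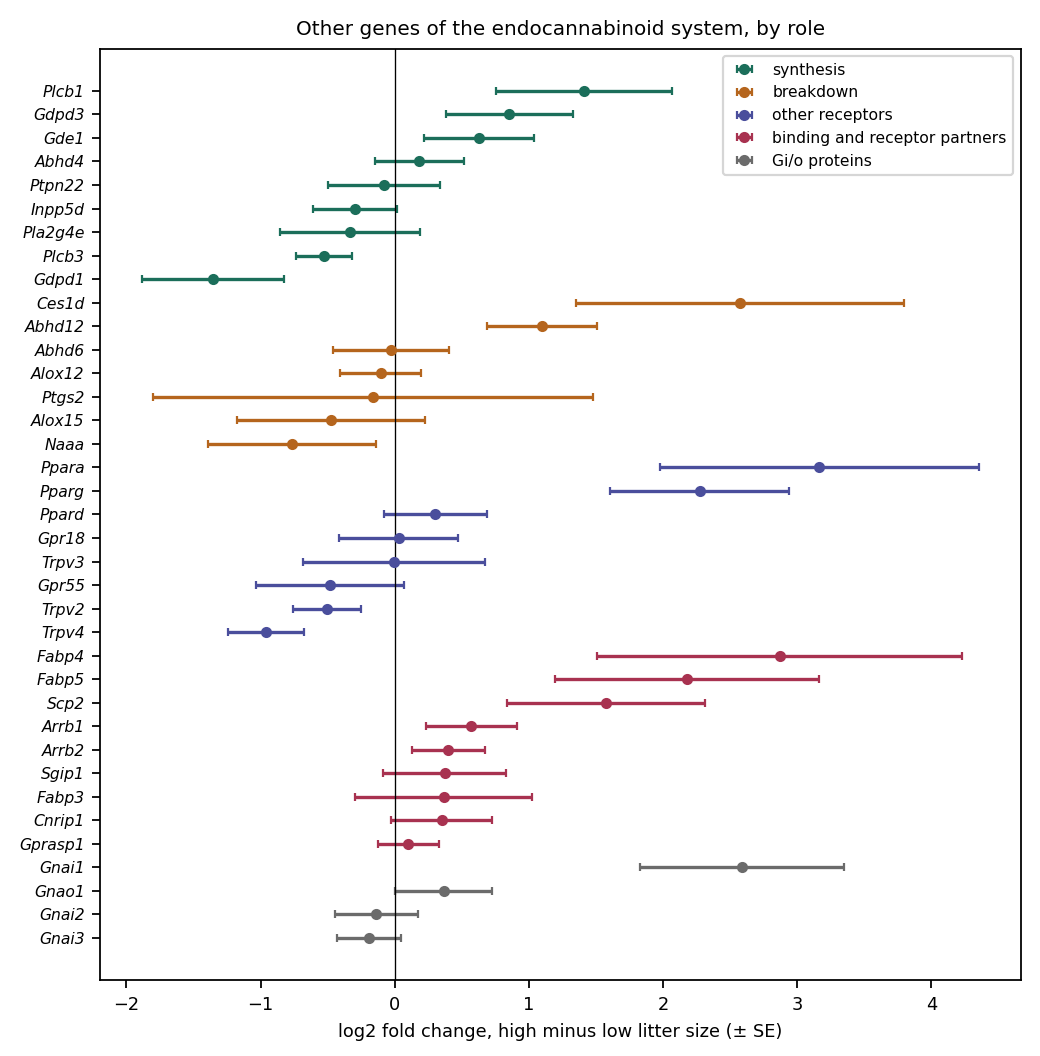
Log2 fold change, high minus low litter size, with SE (horizontal axis) for the 37 tested genes of the wider endocannabinoid system, grouped and coloured by role. No gene passed by edgeR, and the values run from -1.35 for Gdpd1 to 3.17 for Ppara. The 9 binding and receptor partners lie on the positive side in this fit of all 6 libraries, as do 55.3% of all genes tested.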

How the data were processed

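Estimated counts per gene were deposited by the authors for 6 ovarian libraries of polyadenylated RNA. Trim Galore, kallisto, DESeq2 and GRCm38 are named, without versions, per the submitters' processing notes. The values are whole numbers and were taken as rounded kallisto estimates, and the sources used here do not name the annotation release. Reads of similar transcripts are shared out by kallisto. Symbols came from a separate list for 35869 of 36727 genes. Coordinates and exon lengths are from GENCODE M21 on GRCm38, and Plaat5 was matched under an older name.

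Genes were kept by filterByExpr (minimum count 10, minimum total 15), which left 16455, all 8 members among them. The main comparison, high minus low without covariates, used TMM scaling and quasi-likelihood F tests (edgeR 4.0.16, R 4.3.3). P-values were adjusted by Benjamini-Hochberg over all genes, and 0.05 was the threshold. Common dispersion came to 0.219. SE is the log2 fold change over the root of F. DESeq2 1.42.0, limma 3.58.1, other scalings and filters, and each library left out were alternatives. Subsets by granulosa marker level were an addition chosen after seeing the data, and in each the lone sample of a group is assumed to vary like the others. The scripts were tested on simulated data. Start site sequences are from RefSeq on GRCm38.p6, for 7 of the 8 members.

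The members and lists were chosen with earlier results of these data known. The text names all members, the 8 genes of smallest p among other pathway genes reaching 1 CPM in the higher group, and the 6 genes nearest to Cnr1 with a mean of at least 1 CPM and no predicted model name. Other genes were named after their values were seen. The 14 marker lists held 123 entries.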

Additional observations from a re-analysis of the deposited data

How the results depend on the processing

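No paired analysis was possible because the only replicate number in common was 1. Of the 7 members other than Cnr1, 0 passed wherever an adjusted p was given. DESeq2 left that of Mgll undefined, and Trpv1 was not tested under the filter of 1 CPM in 3 libraries. Cnr2, Napepld, Daglb and Mgll had positive values and Faah negative ones in the alternatives run. Trpv1 turned to -0.902 without high replicate 3, to -0.0264 without low replicate 5 and to -0.271 between high replicates 1 and 3 and low replicate 2. Dagla turned to -0.358 without high replicate 3, to -0.0391 without low replicate 2 and to -0.927 between high replicate 4 and low replicates 1 and 5. Without 1 library the highest values were 1.34 for Trpv1 and 0.588 for Dagla. The cause was not tested.

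Of the 37 tested genes of the wider list, DESeq2 and the edgeR likelihood ratio test each called 2 (Gnai1 and Pparg), and the other alternatives 0. These 2 tests called 6.24% and 3.83% of all genes. DESeq2 left the adjusted p of Pla2g4e, Ptgs2, Trpv3, Ppara and Fabp4 undefined. Over all genes, the count of calls was 1 by edgeR, 1026 with DESeq2, 631 with the likelihood ratio test, 3 with limma voom and 2 with library size only. It was 0 to 1 with 1 library left out and 0 in each subset of 3 libraries. Genes whose groups do not overlap numbered 3214, and from 4023 to 5616 with 1 library left out, where fewer samples make this more frequent. The level of Daglb per kilobase went from 1.44 to 2.82 with the longest transcript as length. Depth limits Cnr1 in the low group (3 to 8 counts) and Trpv1 (7 to 38 counts).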
